A study of Drosophila melanogaster with 6 samples.

Results

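Transcripts of the apoptosis machinery and of the c-Jun N-terminal kinase (JNK) pathway were compared between control S2 cells and S2 cells depleted of ROW. The genes were named from knowledge of both pathways, with earlier results of these data known. A gene was measured where the platform annotation gave a probe set its symbol alone. The 44 symbols named 40 genes, of which 34 were measured, among 11982 genes with such a probe set. The IAP antagonists rpr and hid, the inhibitor of apoptosis Diap1, the caspases Drice and Decay and the metalloproteinase Mmp1 are not analysed here. Of the measured genes 25 had 1 probe set and 9 had several, 45 probe sets in all. Each gene is described on its brightest probe set, the one with the highest mean over the 6 arrays, and the others are given beside it. By chromosome arm, 5 of the genes lie on 2L, 10 on 2R, 5 on 3L, 8 on 3R and 6 on X.

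S2 is a cultured fly line of embryonic origin that resembles blood cells. ROW is a zinc finger protein that binds chromatin together with the heterochromatin protein HP1c and the zinc finger protein WOC. The study measured total RNA on Affymetrix expression arrays, 3 of control cells, which the labels call wild type, and 3 of cells kept for 96 h with double-stranded RNA against ROW. No double-stranded RNA is named for the control cells, so loss of ROW and exposure to double-stranded RNA cannot be told apart. The labels do not say whether the arrays of a group came from separate cultures. The p-values, standard errors and intervals therefore rest on array-to-array spread alone, and that spread may be technical. Levels are the authors' RMA values on the log2 scale, so a difference of 1 is a 2-fold change. RNA of whole cultures was measured, so fewer cells of a kind and less RNA per cell cannot be told apart.

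In flies, apoptosis starts when the products of rpr, hid, grim and skl bind Diap1 and free the caspases that it holds in check. The initiator caspase Dronc is then activated on a complex built on Dark, and it cleaves the effector caspases Drice and Dcp-1, which take the cell apart. JNK signalling is a kinase relay that stress, wounding or the tumour necrosis factor ligand Eiger switches on. It runs from the upstream kinases through Hep to the JNK Basket and on to the AP-1 proteins encoded by Jra and kay. AP-1 drives puc, whose phosphatase switches the relay off again, and in many tissues the pathway also raises the cell death genes.

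The arrays were checked before the members were compared. The row transcript was lower in every ROW RNAi array on each of its probe sets, with 15.9% to 33.5% of the control level left. Array medians lay between 4.88 and 5.04, and array pairs correlated across probe sets at 0.987 to 0.998, where probe sets are not independent replicates. All 9 hemocyte markers lay above background on every array, with background set at 3.39, the level below which 95% of the values of the tag controls lay. Their summed level, in which opposite shifts cancel, was 95.3 to 96.0 in the controls and 95.4 to 95.9 in ROW RNAi arrays. In limma He was lower (−0.69, adjusted p = 0.010) and Sr-CI higher (0.62, adjusted p = 0.022). On their brightest probe sets NimC1 (−0.25) and Pxn (−0.20) lay lower and eater (0.20) higher on every ROW RNAi array, but did not pass. The groups of the other 4 overlapped. The 6 crystal cell and lamellocyte markers summed to 35.6 to 35.9 in the controls and 37.6 to 38.3 in ROW RNAi arrays. Of these, atilla (1.58), ItgaPS4 (0.46) and PPO3 (0.21) lay higher on every ROW RNAi array, with atilla and ItgaPS4 past the threshold. The groups of lz (0.13), PPO1 (0.02) and PPO2 (−0.29) overlapped. Muscle and fat body markers lay above background on every array in 0 of 2 genes each, and tj did not either. Neuronal markers did so in 4 of 4 and germline markers in 3 of 4. The ROW RNAi arrays were not alike. On the first principal component, which held 66.9% of the variance, the 3 ROW RNAi arrays had scores of 42.7, −19.5 and 20.8 in replicate order and the controls −3.69, −26.5 and −13.7. The germline gene vas ranked the ROW RNAi arrays in the same order, at 6.50, 3.47 and 5.91, against 4.20, 2.91 and 3.62 in the controls. The controls had this order of replicate numbers too, both in the component scores and in vas, over a narrower range. For grim, p53, Corp, wgn, Gadd45, the brightest Timp probe set and the DNA repair list, results are given with and without ROW RNAi replicate 2.

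None of the 34 genes passed the test after ROW RNAi. In limma with Benjamini-Hochberg adjustment over all 18769 probe sets, 0 members changed at an adjusted p of 0.05, and the lowest adjusted p was 0.14. Over all probe sets 1.16% were called, and over the brightest probe sets of all genes 1.56% (187 of 11982). At an unadjusted p under 0.05, 4 members were higher and 2 lower, where 4.71% of all genes were higher and 10.4% lower. No overlap between the 3 controls and the 3 ROW RNAi arrays was seen for 6 members on the higher side and 4 on the lower side. Of all genes, 7.58% and 16.8% were apart in these directions. The members' log2 fold changes ran from −0.32 to 0.42 with a median of 0.00, and 17 lay above 0 and 17 below. The median over all genes was −0.03. Centring each array on its median takes the same amount from every difference, and it put 11 members above 0 and 23 below, beside 3150 and 8832 of all genes. Cyclic loess scaling put 23 members above 0 and 11 below, beside 5902 and 6080 of all genes. Other settings named with single genes are weights that count noisier arrays less and a gene variance that follows the level of the gene (trend and robust variance). Of the 34 genes, 19 overlap another gene in the reference annotation, among them mei-41, Buffy and Mmp2, and whether the probe sets tell the strands apart is not known here.

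The differences of most of these genes had narrow intervals, which rest on array spread alone and leave out the choice of scaling. The 95% interval of the difference, taken gene by gene from limma, lay wholly within a 1.5-fold change either way for 29 of the 32 genes above background on every array, and within a 2-fold change for 31. Of the 9022 genes in all that were above background on every array, this held for 7694 and 8677. The members left out of these counts were grnd, which was above background on no array, and skl, which was above it on 2 arrays. The median standard error was 0.06 for all 34 members and 0.08 for all 11982 genes, dim ones included. Above background on every array were 32 of the 34 and 9022 of the 11982, so these medians cover unlike shares of dim genes.

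**Figure D1:**
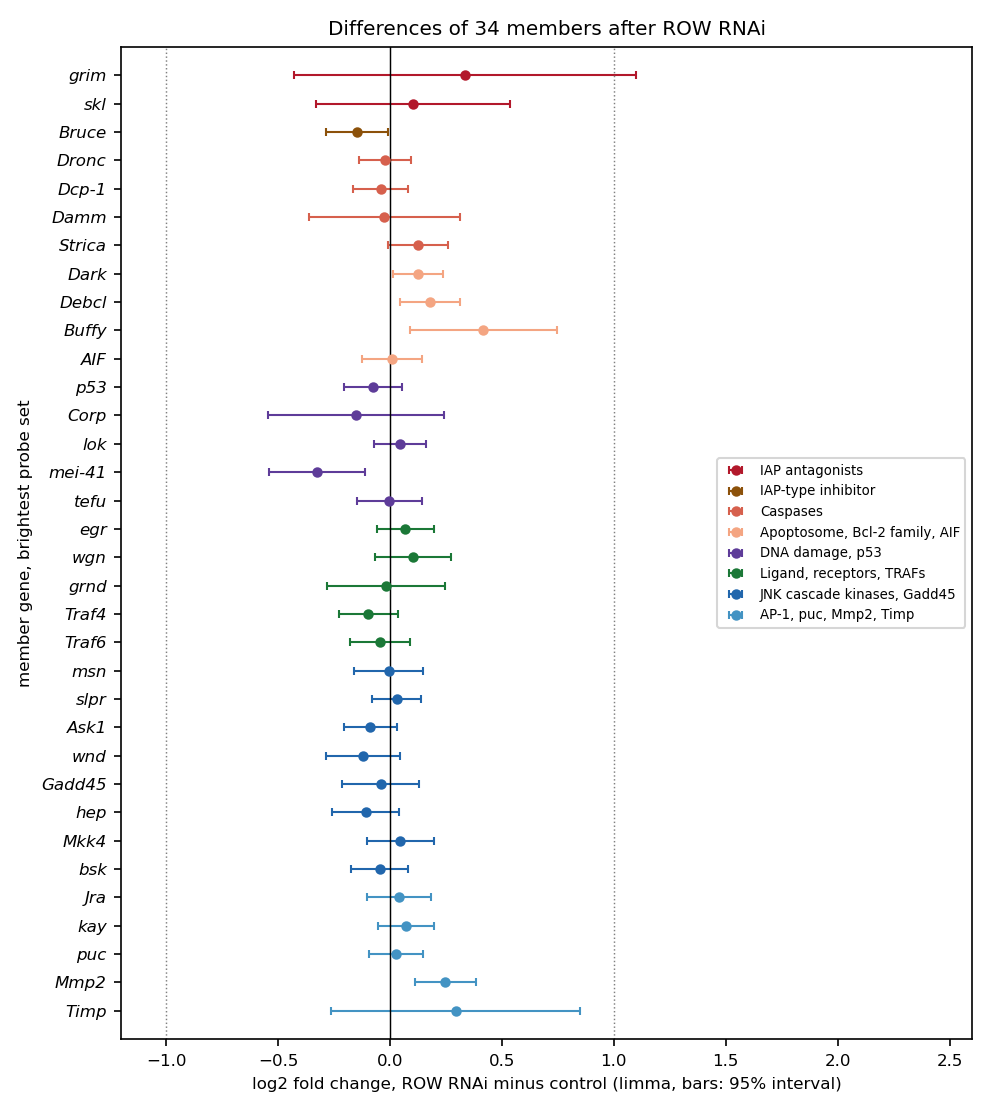
Log2 fold change (ROW RNAi minus control, x axis) of the 34 measured genes on their brightest probe sets, in rows grouped and coloured by role. Bars are 95% intervals from limma (n = 3 arrays per group) and dotted lines mark a 2-fold change; only the interval of grim, from −0.43 to 1.10, passes one of them.

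Of the IAP antagonists, small proteins that unlock caspases by binding Diap1, grim and skl were measured. Both are direct neighbours of rpr on 3L, with 0 protein-coding genes between each and rpr. The level of grim was 4.16, 3.82 and 3.68 on the control arrays and 4.78, 3.61 and 4.28 on the ROW RNAi arrays. The lower of these values lay near the background level of 3.39. The groups overlapped, since ROW RNAi replicate 1 was the highest array and replicate 2 the lowest. The difference was 0.33 (SE 0.31, adjusted p = 0.64), with an interval from a 0.744-fold to a 2.14-fold change. Without ROW RNAi replicate 2 it was 0.64 and without replicate 1 it was 0.06, and neither passed (adjusted p = 0.15 and 0.95). Among the ROW RNAi arrays grim had the order of vas, and the part of that array difference in its values was not tested. A long noncoding and an antisense RNA overlap grim. The level of skl lay between 3.04 and 3.52 on all arrays, about at background, and differed by 0.10 (SE 0.18).

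Bruce encodes a very large inhibitor of apoptosis that holds back grim and rpr. Its level was 9.43, 9.51 and 9.48 in the controls and 9.37, 9.37 and 9.25 in ROW RNAi arrays. All 3 ROW RNAi arrays lay below the controls, by 0.15 on average (SE 0.06), but the difference did not pass (adjusted p = 0.35).

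The 4 measured caspases differed by 0.12 or less in size, and none passed. Dronc, the initiator caspase, stood at 10.31, 10.30 and 10.35 in the controls and 10.33, 10.31 and 10.25 in ROW RNAi arrays. The difference was −0.02 (SE 0.05, adjusted p = 0.84), with an interval from a 0.909-fold to a 1.07-fold change. Dcp-1, an effector caspase, differed by −0.04 (SE 0.05), from levels of 9.03 to 9.06 in the controls to 8.95 to 9.06 in ROW RNAi arrays. Damm, another caspase, differed by −0.03 (SE 0.14), a sign that turned with cyclic loess (0.05) and array weights (0.06). It spread from 5.27 to 5.79 over the ROW RNAi arrays, more than over the controls (5.47 to 5.56). Strica, a caspase with a long prodomain, was higher on every ROW RNAi array, at 11.11, 11.02 and 11.01 against 10.87, 10.96 and 10.95. That difference of 0.12 (SE 0.05) had an adjusted p of 0.39.

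All 4 measured genes that act around the mitochondria and the apoptosome lay above 0, as did 4774 of all 11982 genes, and none passed. Of these, Dark, Debcl and Buffy lay higher on all 3 ROW RNAi arrays than on any control, as 7.58% of all genes did, and AIF overlapped. Dark, the scaffold on which Dronc is activated, stood at 9.54, 9.54 and 9.58 in the controls and 9.70, 9.65 and 9.69 in ROW RNAi arrays. The difference was 0.12 (SE 0.04, adjusted p = 0.32), while its dimmer probe set gave −0.05 (SE 0.11), so its probe sets differ in sign. Debcl, a Bcl-2 family member that favours cell death, stood at 10.53, 10.53 and 10.43 against 10.63, 10.70 and 10.70. The groups were apart by 0.18 (SE 0.05, adjusted p = 0.25), with an interval that ended at a 1.24-fold change. Buffy, the other fly Bcl-2 family member, for which protective effects are described, showed the highest difference among the 34 genes. Its level was 5.24, 4.93 and 5.01 in the controls and 5.24, 5.57 and 5.62 in ROW RNAi arrays. ROW RNAi replicate 1 cleared the highest control by only 0.0018, while the other ROW RNAi arrays stood well above. The difference was 0.42 (SE 0.13, adjusted p = 0.27), with an interval from a 1.06-fold to a 1.68-fold change. Leaving out any array gave 0.34 to 0.54, none past the threshold. The flavoprotein gene AIF differed by 0.01 (SE 0.05), a sign that turned with median centring (−0.04).

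In the DNA damage branch, mei-41 had the lowest difference of the 34 genes, and the 95% interval of p53 ran from −0.21 to 0.05. The kinase gene mei-41 (fly ATR), which signals stalled replication and breaks, stood at 7.25, 7.41 and 7.29 in the controls and 6.86, 7.12 and 7.00 in ROW RNAi arrays. Every ROW RNAi array lay below every control, by 0.32 on average (SE 0.09, adjusted p = 0.20). The interval ran from a 0.688-fold to a 0.927-fold change, and leaving out an array gave −0.39 to −0.26, none past the threshold. The transcription factor p53 had levels of 10.29, 10.28 and 10.32 in the controls and 10.18, 10.29 and 10.19 in ROW RNAi arrays. Replicate 2 lay among the controls, and the difference of −0.08 (SE 0.05) had an adjusted p of 0.54. Without ROW RNAi replicate 2 p53 differed by −0.11 (adjusted p = 0.24). Its dimmer probe set gave −0.03 (SE 0.09).

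The checkpoint kinase gene lok (fly Chk2) differed by 0.05 (SE 0.05), turning to −0.00 with median centring, and tefu, which encodes fly ATM, by −0.00 (SE 0.06), turning to 0.01 with cyclic loess. Although the groups of lok did not overlap, they were 0.00072 apart at the nearest arrays. Corp, whose product binds p53, differed by −0.15 (SE 0.16) and overlapped. Without ROW RNAi replicate 2 the difference of Corp was −0.30 (adjusted p = 0.19), and without replicate 1 it was −0.06 (adjusted p = 0.93). No gene of this branch passed the test, with adjusted p-values between 0.20 and 0.99.

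**Figure D2:**
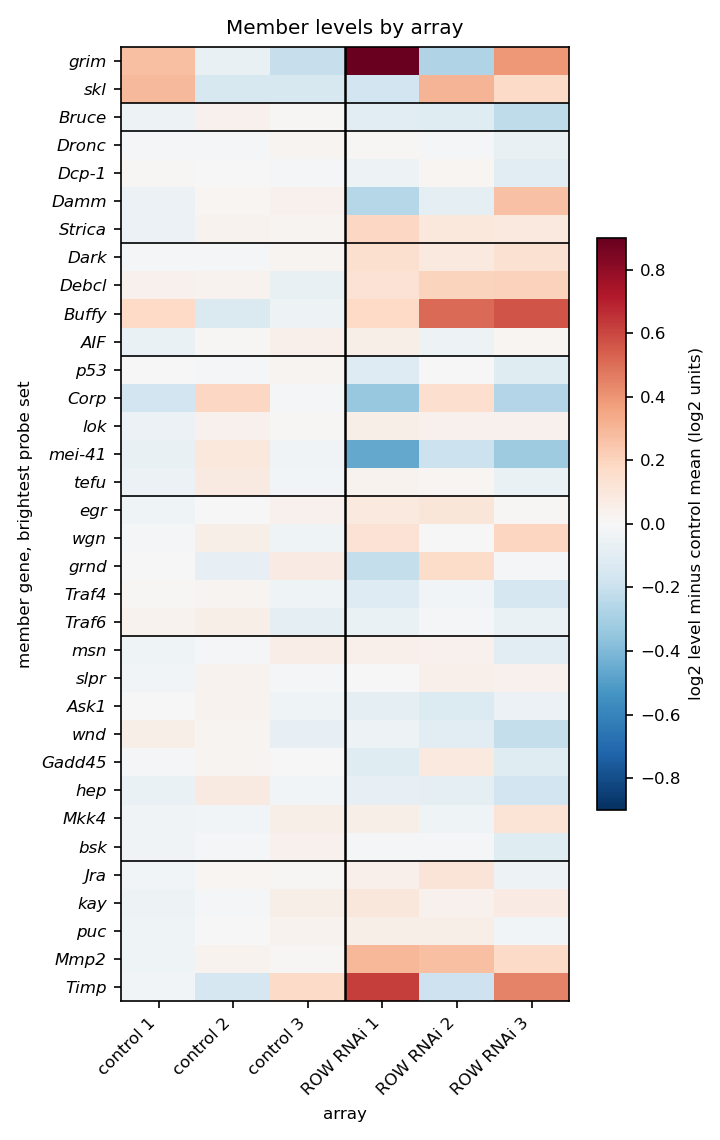
Level of each of the 34 genes (rows, by role) on each of the 6 arrays (columns), as log2 units above (red) or below (blue) the mean of the 3 controls. Most rows are pale, Mmp2, Debcl and Buffy are redder and mei-41 bluer on the ROW RNAi side, and grim and Timp are red on ROW RNAi replicates 1 and 3 but not on replicate 2.

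Upstream in the JNK pathway, the ligand, receptor and adaptor genes differed by 0.10 or less in size, and the groups of all 5 overlapped. The ligand gene egr stood at 12.48, 12.53 and 12.56 in the controls and 12.61, 12.63 and 12.54 in ROW RNAi arrays. The groups overlapped and differed by 0.07 (SE 0.05, adjusted p = 0.58), and its dimmer probe set gave 0.11 (SE 0.06). The receptor gene wgn differed by 0.10 (SE 0.07), with levels from 12.19 to 12.42 over all arrays. Without ROW RNAi replicate 2 wgn differed by 0.16 (adjusted p = 0.18). The other receptor gene, grnd, read 2.20, 2.12 and 2.27 in the controls and 1.98, 2.36 and 2.18 in ROW RNAi arrays. All 6 values lay below the background level, so its probe set gave no measurable signal and its difference (−0.02, turning to 0.02 with cyclic loess) has no order. The adaptor genes Traf4 and Traf6 differed by −0.10 (SE 0.05) and −0.04 (SE 0.05), and Traf6 turned to 0.00 with cyclic loess. The dimmer probe set of Traf4 gave −0.02 (SE 0.16).

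The kinases of the relay, with Gadd45, had log2 fold changes of −0.12 to 0.05 over 8 genes, and none passed. At the top, msn (−0.01, SE 0.06), which encodes a Ste20-type kinase, and slpr (0.03, SE 0.04), which encodes a mixed lineage kinase, had the smallest differences. Their signs turned with cyclic loess for msn (0.01) and median centring for slpr (−0.02). The other kinases of that tier, Ask1 and wnd, differed by −0.09 (SE 0.05) and −0.12 (SE 0.07). Ask1 lay below the controls on all 3 ROW RNAi arrays, at 9.43, 9.39 and 9.46 against 9.52, 9.55 and 9.48. Gadd45, a stress protein whose mammalian relatives activate a kinase of this tier, differed by −0.04 (SE 0.07) and turned to 0.01 with cyclic loess. Without ROW RNAi replicate 2 Gadd45 differed by −0.11 (adjusted p = 0.26).

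Hep, the kinase that phosphorylates JNK, had levels of 9.68, 9.82 and 9.71 in the controls and 9.67, 9.66 and 9.57 in ROW RNAi arrays. The ROW RNAi arrays were all lower, by 0.11 on average (SE 0.06, adjusted p = 0.47), with a gap of 0.016 between the nearest arrays. Its other probe sets gave −0.06 and −0.07 with overlapping groups. Mkk4, the partner of Hep, differed by 0.05 (SE 0.06), turning to −0.00 with median centring. The JNK gene bsk stood at 11.68, 11.69 and 11.74 in the controls and 11.69, 11.69 and 11.60 in ROW RNAi arrays. The difference was −0.05 (SE 0.05, adjusted p = 0.71), its other probe sets gave 0.00 and 0.03, and the interval ended at a 0.887-fold and a 1.06-fold change.

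The AP-1 genes and puc, the readout most used for JNK activity in flies, did not pass either. Jra, the fly Jun gene and a close neighbour of egr on 2R, stood at 11.27, 11.31 and 11.31 in the controls and 11.34, 11.42 and 11.25 in ROW RNAi arrays. The difference was 0.04 (SE 0.06, adjusted p = 0.77) and turned to −0.01 with median centring. The fly Fos gene kay stood at 12.09, 12.13 and 12.19 against 12.24, 12.17 and 12.21, a difference of 0.07 (SE 0.05, adjusted p = 0.56). Its dimmer probe set was higher on every ROW RNAi array, by 0.21 (SE 0.07, adjusted p = 0.28). For puc the levels were 11.65, 11.70 and 11.72 in the controls and 11.74, 11.74 and 11.67 in ROW RNAi arrays. Replicate 3 lay among the controls, and the difference of 0.03 (SE 0.05, adjusted p = 0.81) turned to −0.02 with median centring. The interval of puc ran from a 0.938-fold to a 1.11-fold change.

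Mmp2 came nearest to the threshold of the 34 genes and is described for that reason, which was seen in the values. It encodes a membrane-anchored matrix metalloproteinase. Its level was 9.77, 9.83 and 9.81 in the controls and 10.11, 10.07 and 9.98 in ROW RNAi arrays, so every ROW RNAi array exceeded every control. The difference was 0.25 (SE 0.05, adjusted p = 0.14), an interval of a 1.08-fold to a 1.30-fold change. It passed with trend and robust variance (adjusted p = 0.022) and when only probe sets above the median of all mean levels were tested (adjusted p = 0.038). Leaving out an array gave 0.22 to 0.28, and in no such fit did it pass. The mean of its probe sets gave 0.10, since the dimmer one, near background at 3.86 to 4.23, gave −0.05 (SE 0.14).

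Timp encodes the inhibitor of the matrix metalloproteinases. On its brightest probe set it stood at 6.05, 5.93 and 6.25 in the controls and 6.70, 5.89 and 6.53 in ROW RNAi arrays. Replicates 1 and 3 were above the controls and replicate 2 was the lowest array, so the groups overlapped (0.29, SE 0.22, adjusted p = 0.58). Without ROW RNAi replicate 2 the difference was 0.53 (adjusted p = 0.081), and without replicate 1 it was 0.13 (adjusted p = 0.87). The dimmer probe set read 5.30, 5.29 and 5.68 in control against 6.04, 5.73 and 5.92. There the groups did not overlap, and the difference of 0.47 (SE 0.14) had an adjusted p of 0.23. Among the ROW RNAi arrays both Timp probe sets had the order of vas, as grim did, and the part of that array difference was not tested. Timp overlaps the gene Syn in the reference annotation.

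**Figure D3:**
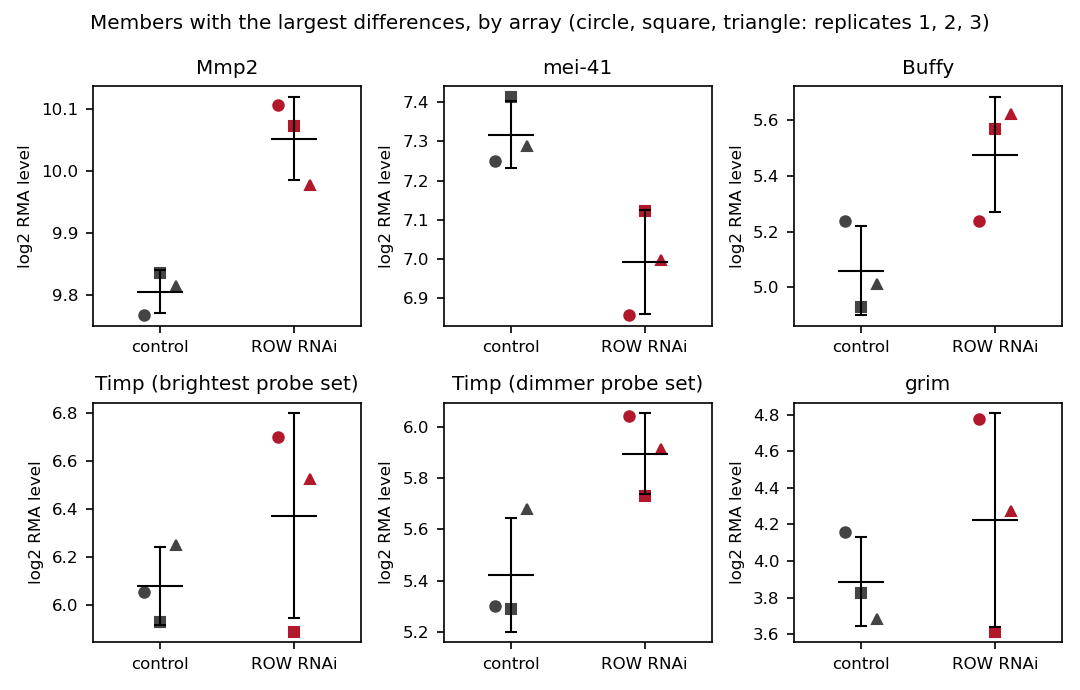
Log2 RMA level (y axis, a scale of its own in each panel) on the 3 control and 3 ROW RNAi arrays for the genes with the highest differences in size. Horizontal bars are means and error bars SD (n = 3 arrays); the groups of Mmp2 (9.77 to 9.83 against 9.98 to 10.11) and mei-41 are apart, while ROW RNAi replicate 2 of grim and of the brightest Timp probe set lies below the controls.

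Other genes of the same pathways were read from lists that exclude the 34 and were chosen with earlier results of these data known. None of these 72 genes passed in limma. The counts that follow are at an unadjusted p under 0.05, where 4.71% of all genes were higher and 10.4% lower. Of 21 other cell death genes measured (25 listed), such as the fly IAP gene Diap2 and the DNA fragmentation factor genes, 1 was higher and 1 lower, with a median of −0.03. Of 16 other JNK and MAP kinase genes (26 listed) 1 was higher and 2 lower, with a median of −0.01. Of 14 genes known as JNK outputs (17 listed) 3 were higher and 1 lower, with a median of −0.02, and 9 of the 14 lay above background on every array. The genes named next were chosen after their values were seen, because they passed under at least 1 alternative. The engulfment receptor gene drpr was higher on every ROW RNAi array, by 0.17 (SE 0.05, adjusted p = 0.25), and reached an adjusted p of 0.0498 with trend and robust variance. The stress kinase gene p38c differed by 0.14 (SE 0.04, adjusted p = 0.29; 0.042 with that variance).

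The output gene scaf, which encodes a protease homologue induced by JNK at epithelial edges, had levels of 9.84, 10.02 and 10.03 in the controls and 10.39, 10.24 and 10.30 in ROW RNAi arrays. All 3 ROW RNAi arrays lay above the controls, by 0.35 (SE 0.08, adjusted p = 0.14). It passed with trend and robust variance (adjusted p = 0.016) and among the brighter probe sets alone (adjusted p = 0.044). Of the 14 output genes measured, 6 lay above 0 and 8 below, beside 4774 and 7208 of all genes. Without overlap between the groups 4 were higher and 2 lower, where 7.58% and 16.8% of all genes were.

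Genes of DNA repair and checkpoints lay mostly below 0, and none passed. This list too was chosen with earlier results of these data known, so its counts are descriptive and no independent test. Of 21 measured (24 listed), 19 lay below 0, as did 7208 of all 11982 genes, and 8 were lower at an unadjusted p under 0.05, with 0 higher, where 10.4% of all genes were lower. In 10 of them the ROW RNAi arrays all lay below the controls, where 16.8% of all genes had this. Their median was −0.11 beside −0.03 for all genes. With cyclic loess these medians were −0.07 and −0.0020, with median centring −0.16 and −0.08, and without ROW RNAi replicate 2 they were −0.09 and −0.04, with 18 of the 21 below 0. The lowest adjusted p was that of rad50, which encodes a subunit of the break-sensing MRN complex. It stood at 9.97, 9.95 and 9.96 in the controls and 9.70, 9.77 and 9.72 in ROW RNAi arrays. The groups did not overlap and differed by 0.23 (SE 0.04), though at an adjusted p of 0.11. The end-joining genes Ku80 and Irbp, which encode the Ku subunits, differed by −0.25 (SE 0.05) and −0.18 (SE 0.05), with adjusted p-values of 0.13 and 0.20. All 3 genes passed with trend and robust variance (adjusted p = 0.015, 0.020 and 0.049) and among the brighter probe sets alone (0.018, 0.032 and 0.046).

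**Figure D4:**
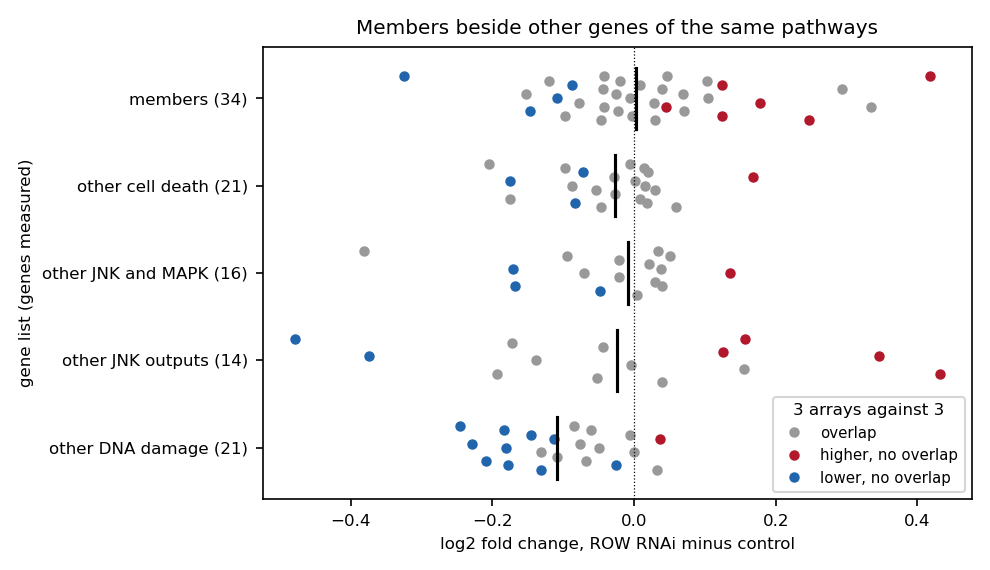
Log2 fold change (x axis) of the 34 members and of 72 other genes in 4 lists of the same pathways (rows, each with its number of genes), 1 point per gene with vertical spread only for legibility. Black bars are medians and colours mark genes whose 3 arrays per group do not overlap; the DNA damage list has 10 of 21 genes lower without overlap and a median of −0.11, and the members centre on 0.00.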

How the data were processed

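Total RNA (25 ng per sample) was amplified isothermally and labelled with biotin per the labels. The deposited values are log2 levels, 1 per probe set and array, made by the authors with RMA, as the submitters' processing notes record. RMA equalises the arrays, which hides any shift common to most transcripts, and it can compress folds. The depth of an array has no count, and the number of arrays limits precision. Of 18952 probe sets, 183 controls were left out. Symbols came from the platform annotation and were updated by gene ID against RefSeq (Release 6), which matched 13544 of 13647 probe sets with 1 symbol; 402 had several and 4720 none. Coordinates are not printed, since no source used here gives the build of that annotation.

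Groups were compared with limma 3.58.1 (lmFit, eBayes, two-sided) in R 4.3.3, with Benjamini-Hochberg adjustment over all probe sets. SE is the moderated standard error. The fit was tested on simulated data. Figures were drawn with matplotlib 3.10.9. Members, gene lists and tests were chosen with earlier results of these data known. The rule for values per array took members past the threshold, members that did not overlap and differed by at least 0.3, and core members; Bruce, Strica, Debcl, Ask1, Mmp2 and Timp are shown in this way too, chosen after their values were seen. Alternatives were median centring and cyclic loess, testing the brighter probe sets alone, a trended and robust or an unmoderated variance, weighting of arrays, a block for the replicate number, averaging the probe sets of a gene, and leaving out each array.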

Additional observations from a re-analysis of the deposited data

Results flagged for a closer look

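The 18 hybridization control probe sets, which no comparison uses, averaged 11.9 on ROW RNAi replicate 2, 0.485 above the highest control array, and 11.4 to 11.5 on the other arrays. Its part in the members' values was not tested.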

How the results depend on the processing

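Of the 34 members, 1 passed with trend and robust variance and 1 among probe sets above the median mean, where 30 members were tested; it was Mmp2 in both, on 1 probe set. Under every other alternative 0 members passed in limma (2 to 8 at an unadjusted p under 0.05), with the replicate number as a block and without each array included. Over all probe sets the count was 107 with median centring, 575 above the median mean (fewer probe sets tested), 558 with trend and robust variance, 122 with the unmoderated test and 0 with the replicate block (2924 at an unadjusted p under 0.05), against 218. Without 1 array it was 24 to 517, the highest without ROW RNAi replicate 2. For the other settings the cause was not tested. Signs of 12 members, none past the threshold, turned under at least 1 alternative. With median centring they turned for AIF (−0.039), lok (−0.0012), slpr (−0.017), Mkk4 (−0.00040), Jra (−0.0075) and puc (−0.019). With cyclic loess they turned for Damm (0.047), tefu (0.013), grnd (0.022), Traf6 (0.0019), msn (0.0055) and Gadd45 (0.011), and with array weights for Damm (0.062). Without 1 array the ranges were −0.17 to 0.088 for Damm, −0.021 to 0.036 for AIF, −0.031 to 0.038 for tefu, −0.11 to 0.077 for grnd, −0.031 to 0.040 for msn and −0.00023 to 0.081 for Jra. As a check of pairing, deviations from the group means correlated, over probe sets, at 0.48, 0.55 and −0.04 between arrays of one number. Between numbers 1 and 2 the correlations were −0.54 and −0.52, and between the remaining numbers −0.21 to 0.25. Control replicates 1 and 2 each correlated best with their own number, and control replicate 3 did not. The labels do not say that numbers pair the arrays, so the arrays were not paired.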
